A study of Mus musculus with 80 samples.

Results

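The comparison set the saline-injected hippocampus against the uninjected hippocampus of the same mouse in 14 sham-operated animals, to ask what the needle and 50 nl of saline left behind on the injected side. It used every sham array, 28 of the 80 arrays and 14 of the 40 animals of the study, and both arrays of an animal were joined by its animal number. The mice were males of the strain given as C57Bl/6J, aged 12 weeks at surgery, and the injected hemisphere (ipsilateral, IL) was always the right one, reached through a burr hole over the dorsal hippocampus. Sham animals received saline alone and gave tissue 7 days (4 animals), 28 days (5 animals) or 60 days (5 animals) after surgery. The other 26 animals (8, 9 and 9 at these days) received the same volume of 20 mM kainic acid (KA), which activates glutamate receptors of the kainate type, in 0.9% saline, and serve here only as a measure of what a lesioned side looks like on the same arrays. Because the injected side was the right side in every animal, and the groups hold no unoperated animals, injection and right-left asymmetry cannot be told apart. The day after surgery also sets the age at death, so day and age cannot be told apart either.

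A needle passed into the brain cuts fine vessels and processes. Astrocytes near such a track thicken and make more of the filament protein GFAP, microglia move in and take on a phagocytic state, and blood and fibroblasts can enter along the path, so that the genes of these cells are the usual markers of a stab wound. In kainate models the saline-injected animal and the uninjected side both serve as controls. The injected sides of kainate and saline animals both carry a track. A gene the track itself changes would therefore enter the comparison of an injected with an uninjected side.

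Each array measured RNA from the hippocampus of one side with Illumina bead probes, and values are the deposited log2 signals. Dentate, CA1 and other hippocampal neuron markers were read well above background: Prox1 (a granule cell transcription factor) and Wfs1 (enriched in CA1 pyramidal cells) were detected on 14 of 14 arrays of each side. The sham arrays detected 46.8% to 65.4% of probes, and no difference between the sides in the share of probes detected, the median intensity or the first 2 principal components passed (exact sign-flip permutation over 14 animals, two-sided p = 0.889, 0.772, 0.537 and 0.321). The spread of both components came mostly from single extreme arrays. The first component reached 85.8 on an IL array, against at most 13.6 on the uninjected side. The second fell to -71.6 on an array of the uninjected side, against -1.92 at the lowest on the IL side. The tests of the components therefore say little about the sides of the other animals. The arrays lay on 10 slides that held the sides unevenly: slide 2 held 4 CL (contralateral, uninjected) sham arrays and no IL array, slide 9 held 3 IL and 1 CL, and only 3 animals had both sides on 1 slide.

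One animal stood apart. Of 1048 probes with a median above 11 on the log2 scale, 4 of the 80 arrays read 166 to 212 at more than 8-fold below that median, while the other 76 arrays read at most 1 such probe. The 4 were 2 KA arrays and both arrays of a single sham animal of day 28 (IL replicate 5, CL replicate 3), and only 37 probes were low on both of its sides. Its IL array read Slc17a7, a vesicular glutamate transporter of principal cells, at 7.26 where the other 26 sham arrays lay between 12.00 and 13.06. Its CL array read Syn1, a synaptic vesicle protein, at 8.01 where the others lay between 12.17 and 13.78. Results are therefore given for all 14 animals and, where they move, for the 13 animals without this one.

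No gene separated the injected from the uninjected side past the threshold. Of 10304 genes, 0 passed an adjusted p of 0.05 when the days were pooled (0% of genes in either direction; limma on within-animal differences with Benjamini-Hochberg adjustment; lowest adjusted p = 0.956). At an unadjusted p under 0.05 there were 315 genes, 3.06% of those tested, of which 121 (1.17%) were higher and 194 (1.88%) lower on the IL side. No gene was higher on the IL side in all 14 animals or in none, 9 (0.0873%) were higher in 13 of 14 and 14 (0.136%) in 1 of 14. Without the animal that stood apart the counts were 0 and 344 (3.34%), with a lowest adjusted p of 0.996. The central 95% of the genes' differences ran from -0.24 to 0.23, and the largest in size was that of Igf2, at -0.64.

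The comparison was narrow enough to bound the measured difference of most genes. The filter kept genes detected on as few as 4 of 28 sham arrays. For genes near background the interval bounds the signal read and not the change in RNA. The 95% confidence interval of the side difference lay inside a 1.5-fold change in either direction for 9738 genes (94.5%) and inside a 2-fold change for 10163 (98.6%). With 13 animals these counts were 10209 (99.1%) and 10294 (99.9%). The median half-width of the interval was 0.19 log2 units in the pooled comparison, 0.36 at day 7 and 0.32 at days 28 and 60, so single days bound a difference less tightly. In KA animals, measured the same way but with 26 animals and a median half-width of 0.13, 818 genes (7.94%) were higher and 800 (7.76%) lower on the injected side.

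**Figure D1:**
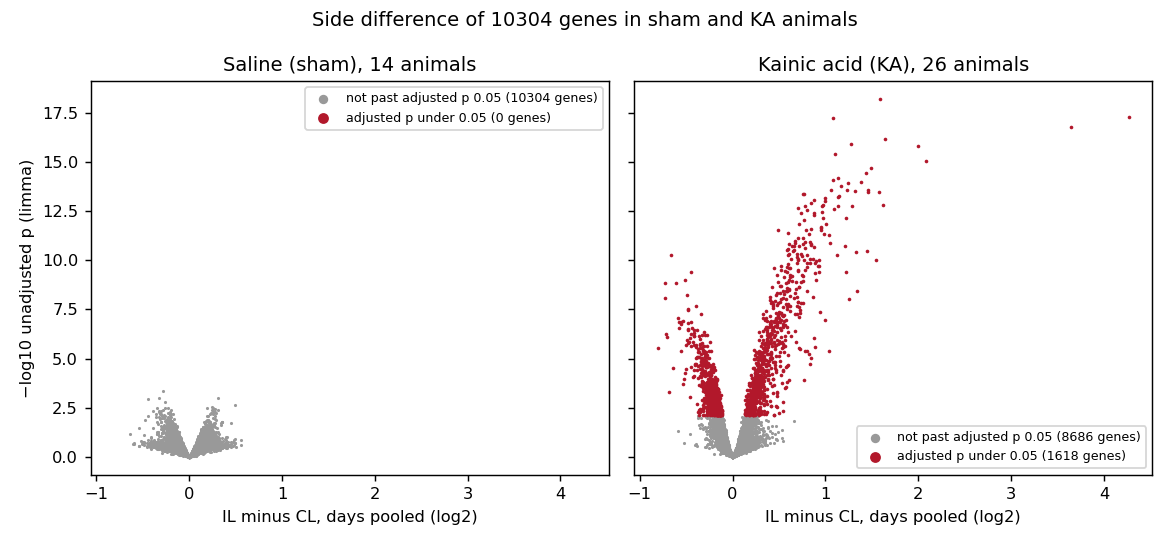
Side difference (IL minus CL, days pooled, log2, x axis) and −log10 of the unadjusted limma p (y axis) of each of 10304 genes, for the 14 sham animals (left) and the 26 KA animals (right) on the same axes. No sham gene is past the adjusted threshold, while 1618 KA genes (red) are, reaching a difference of 4.27.

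Gfap and other astrocyte genes stood on both sides of 0. Over all 39 lists 0 of 336 list entries tested passed. None of the 13 reactive astrocyte genes measured passed, 8 of 13 differences were above 0 and the median difference was 0.01, against 46.8% above 0 and a median of -0.01 over all genes. At an unadjusted limma p under 0.05, 0 of the 13 were higher and 2 lower on the IL side (all genes 1.17% and 1.88%). These 2 were Cp, at -0.20, and Cd44. Gfap, the astrocyte filament protein, read 7.11 to 9.46 on the IL side (median 8.19) and 7.19 to 8.30 on the CL side (median 7.94). Both sides overlapped, and the IL side was higher in 10 of 14 animals. The difference was 0.31 ± 0.15 (SE, n = 14 animals; 95% interval -0.01 to 0.63; limma adjusted p = 0.956), and 0.28 in the 13 animals. Its spread was uneven: the day 7 animal of IL replicate 2 differed by 1.51 and the day 60 animal of IL replicate 5 by 1.19, whereas 4 animals were lower on the IL side. Leaving out 1 animal moved the Gfap difference between 0.18 and 0.38. The 3 animals with both sides on 1 slide differed in Gfap by 0.09 to 1.19 (mean 0.56). All 3 were day 60 animals, 1 of them with both arrays on slide 9, so that in them slide and day cannot be told apart. With slide as a fixed term the Gfap difference over all days was 0.34.

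Serpina3n, a secreted protease inhibitor of reactive astrocytes, was higher on the IL side in 12 of 14 animals, but the difference of 0.25 ± 0.16 (SE, limma adjusted p = 0.956) included animals from -1.53 to 1.18. Vim, another intermediate filament gene, differed by 0.01 ± 0.09 and Timp1, an inhibitor of matrix metalloproteinases, by 0.13 ± 0.12. Cd44, a hyaluronan receptor of reactive astrocytes, stood on the other side of 0 with -0.22 ± 0.08 (unadjusted p = 0.0139, limma adjusted p = 0.956; IL higher in 4 of 14 animals). The CL arrays read it at 6.03 to 6.53 and the IL arrays at 5.58 to 6.56, with overlap. In the 3 same-slide animals of day 60 the mean was -0.55, with slide as a fixed term the Cd44 difference over all days was -0.26, and a second Cd44 probe gave -0.11. Lcn2, which encodes lipocalin 2 and is a marker of reactive astrocytes, was detected on 0 of 14 IL and 1 of 14 CL arrays and was not tested.

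Microglial genes sat slightly above 0 without passing. Of 11 homeostatic microglia genes 8 were above 0, with a median of 0.11 and a range from -0.06 (Olfml3) to 0.23 (Fcrls), and all 11 intervals lay inside a 1.5-fold change. Aif1, which encodes the microglial protein Iba1, read 7.30 to 8.00 on the IL side (median 7.59) and 7.00 to 7.86 on the CL side (median 7.48). The levels overlapped widely and 10 of 14 animals were higher on the IL side, a difference of 0.20 ± 0.09 (SE; 95% interval 0.01 to 0.38; unadjusted p = 0.0376, limma adjusted p = 0.956). A second Aif1 probe gave 0.07, the 3 same-slide animals of day 60 had a mean of 0.42, and with slide as a fixed term the Aif1 difference over all days was 0.16.

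Of the 8 activated microglia and macrophage genes measured, 6 were above 0 (median 0.16; 0.12 with 13 animals) and 0 passed. Lyz2, lysozyme of phagocytes, differed by 0.18 ± 0.09 and Cd52, a small surface glycoprotein of leukocytes, by 0.22 ± 0.11 (limma adjusted p = 0.956 for both). With 13 animals they were 0.14 and 0.15. Gpnmb, a glycoprotein of phagocytic macrophages, differed by 0.06 ± 0.11. Among 5 complement genes 2 were above 0. C1qa, a subunit of the initiating complex, differed by -0.03 ± 0.07, with an interval from -0.18 to 0.11, and C4b by 0.11 ± 0.12. The 7 cytokine and chemokine genes measured had a median of 0.06, and the monocyte chemokine Ccl2 was detected on 0 of 28 sham arrays. Of 8 interferon response genes 4 were above 0 (median -0.01) and of 9 antigen presentation genes 4 (median -0.003). With 13 animals the interferon list had 2 genes above 0 (median -0.03) and the antigen presentation list 3 (median -0.07). The complement list then had 3 of 5 above 0 (median 0.07), and the cytokine and chemokine list 4 of 7 (median 0.02). B2m, the light chain of MHC class I, was at 0.27 ± 0.11 (higher in 10 of 14 animals), and Serping1, the C1 inhibitor, at -0.29 ± 0.13 (higher in 3 of 14); the limma adjusted p was 0.956 for both. Bulk tissue gives one value per hippocampus, so a change in the number of cells of a type and a change in RNA per cell cannot be told apart.

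**Figure D2:**
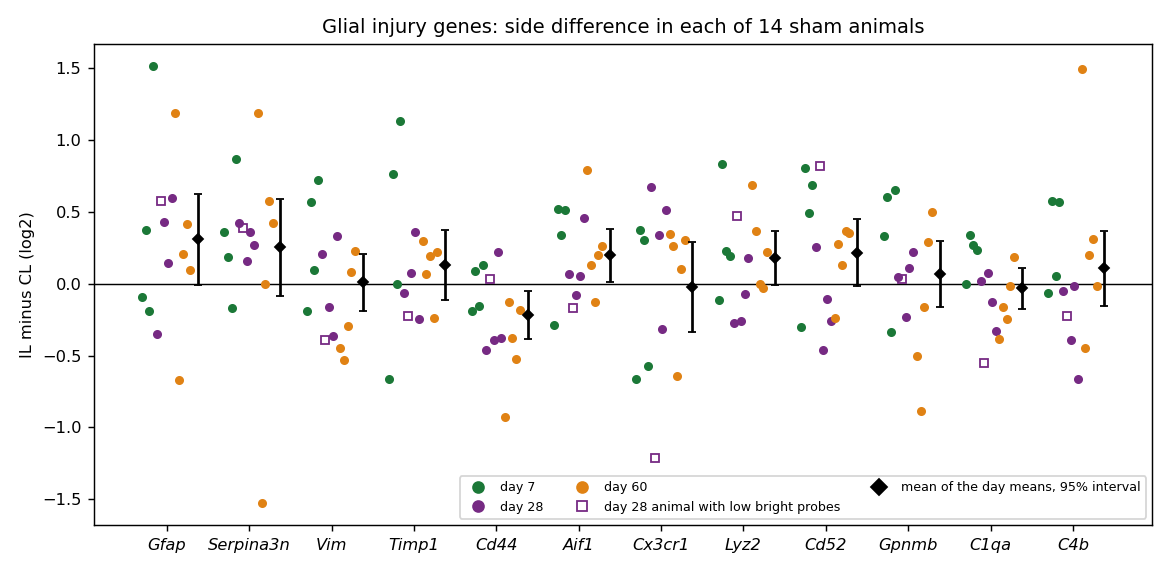
IL minus CL difference (log2, y axis) of 12 astrocyte, microglia and complement genes in each of the 14 sham animals (green day 7, purple day 28, orange day 60; the open square is the day 28 animal with low bright probes), with the mean of the day means and its 95% interval as a black diamond. Animals lie on both sides of 0 for every gene; Gfap is highest at 1.51 in a day 7 animal, and Cd44 has its mean below 0 at -0.22.

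Genes of meninges, fibroblasts and vessels leaned to the uninjected side, and none passed. Of 12 genes of meninges and fibroblasts 1 was above 0 (median -0.12), of 10 genes of pericytes and smooth muscle 1 (median -0.09) and of 11 endothelial genes 0 (median -0.04), while 46.8% of all genes were above 0. Without the animal that stood apart the 3 lists had 0, 1 and 0 genes above 0 and medians of -0.24, -0.13 and -0.07. The lean was not particular to these lists. Of 6 ependyma genes 0 were above 0 (median -0.10), of 8 thalamus genes 1 (-0.10) and of 5 border macrophage genes 1 (-0.06). With 13 animals these lists had 0, 1 and 0 genes above 0 and medians of -0.20, -0.13 and -0.05. The neocortex list did not lean this way, with 5 of 8 above 0 (median 0.03). Slide and choroid plexus genes also varied between the sides, and their part in these values was not tested. The difference of Igf2 (insulin-like growth factor 2, made by meninges and choroid plexus) was -0.64 ± 0.33 with 14 animals and -0.32 with 13. Col1a1, a fibrillar collagen, differed by -0.10 ± 0.10, and Tnc, tenascin C of glial scars, by -0.11 ± 0.07. Of 13 scar matrix genes 3 were above 0 (median -0.06), and the list held genes on opposite sides. S100a6, a calcium-binding protein, was higher on the IL side in 12 of 14 animals (0.34 ± 0.13), and Anxa2, annexin A2, in 1 of 14 (-0.22 ± 0.09), neither past the threshold (limma adjusted p = 0.956). Haemoglobin Hba-a1, a measure of blood in the tissue, differed by -0.25 ± 0.18, and by -0.11 with 13 animals. Another haemoglobin gene, Hbb-bt, stood on the other side of 0 at 0.16, and at 0.11 with 13 animals. It was the 1 of 4 red blood cell genes above 0 (median -0.22), and Alas2 was the lowest at -0.34. Of 9 genes of haem and iron handling 2 were above 0 (median -0.06). Hmox1, haem oxygenase 1, which responds to bleeding, was detected on 1 of 14 IL and 0 of 14 CL arrays.

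No neuronal gene passed. The CA1 list had 1 of 6 genes above 0 (median -0.10), the CA2 and CA3 list 4 of 7 (0.03), the dentate list 2 of 5 (-0.01), the pan-neuronal list 8 of 11 (0.05) and the interneuron list 3 of 10 (-0.10). Wfs1 differed by -0.13 ± 0.09 and Prox1 by -0.09 ± 0.12. Pvalb, of fast-spiking interneurons, differed by 0.10 ± 0.10. The values of Slc17a7, Sst and Cck rested on the animal that stood apart. Slc17a7 moved from -0.43 to -0.07 without it, Sst (somatostatin) from -0.35 to 0.01 and Cck (cholecystokinin) from 0.56 to 0.19. Among 11 genes of myelinating oligodendrocytes 3 were above 0 (median -0.02), and Mbp, myelin basic protein, differed by 0.03 ± 0.05.

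Npy encodes a peptide of interneurons that dentate granule cells also express after seizures. The IL arrays read it at 10.80 to 11.58 (median 11.08) and the CL arrays at 10.69 to 11.32 (median 10.86). Npy was higher on the IL side in 12 of 14 animals, by 0.23 ± 0.07 (SE; 95% interval 0.08 to 0.39; unadjusted p = 0.00606, limma adjusted p = 0.956). The KA animals differed by 0.26 ± 0.10 (limma adjusted p = 0.0774), and KA minus sham was 0.03 ± 0.17. Without the animals with low bright probes the KA difference of Npy passed (0.32 ± 0.10, limma adjusted p = 0.0303). With slide as a fixed term the sham difference of Npy was 0.41 and did not pass (limma adjusted p = 0.680). Of the 14 neuropeptide and trophic factor genes 10 were above 0 (median 0.10; with 13 animals 11, median 0.05).

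Immediate early genes, which report recent neuronal activity, had 8 of 10 differences above 0 and a median of 0.14. The lean was one of genes and not of animals. Taken by sham animal, the mean over the 10 genes had a median of -0.02 and ran from -0.35 to 1.04. That mean was above 0 in only 7 of the sham animals. Without the animal that stood apart its median was 0.006. At day 28 Fos was higher on the IL side in 5 of 5 animals, by 0.43 to 1.09, at day 7 in 2 of 4 and at day 60 in 2 of 5, where 1 animal differed by 1.44. The pooled Fos difference was 0.30 ± 0.13 (unadjusted p = 0.0324, limma adjusted p = 0.956), and the change over days did not pass (limma adjusted p = 0.989). With slide as a fixed term the Fos difference was 0.26. The Fos level was 6.46 to 7.51 on the 4 IL and 6.99 to 7.20 on the 4 CL arrays of day 7, below every array of days 28 and 60 (8.00 to 10.01) on either side.

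The lowest p values of the pooled comparison belonged to genes with small differences, none of which passed. The 10 lowest on the higher side included Amotl2, an angiomotin-like protein of cell junctions, at 0.31 ± 0.08 (higher in 13 of 14 animals). Il2ra, the interleukin 2 receptor alpha chain, was at 0.50 ± 0.13, and the ribosomal protein gene Rpl24 at 0.19 ± 0.06 (13 of 14). Amotl2 and Il2ra were close to background, detected on 5 and 7 of 14 IL arrays and on 1 of 14 CL arrays each. The 10 lowest on the lower side began with Insyn2b, an inhibitory synapse factor, at -0.29 ± 0.06 (limma unadjusted p = 0.000453; lower in 12 of 14). Col23a1, a transmembrane collagen, was at -0.44 ± 0.11 and Itga2b, the platelet integrin alpha chain, at -0.28 ± 0.08 (lower in 13 of 14). Avpr1a, a vasopressin receptor, was not well above background on any IL array and was detected on 6 of 14 CL arrays.

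Taken day by day, 1 gene passed in 1 day. At day 28 Kank2, a regulator of the actin cytoskeleton, was lower on the IL side (1 gene called lower, 0.0097% of those tested; 0% higher; limma adjusted p = 0.0286). The 5 IL arrays read 5.00, 5.44, 4.94, 5.79 and 5.68, and the 5 CL arrays 5.87, 6.15, 5.89, 6.32 and 6.14. The sides did not overlap and the measured difference was -0.71 ± 0.10. The probe was not well above background on any of the 5 IL arrays and was detected on all 5 CL arrays, so that Kank2 was only at least 1.09-fold higher on the CL side. The call was lost without the animal that stood apart (difference -0.70, limma adjusted p = 0.144) and in 12 of the 14 fits that left out a single animal, and days 7 and 60 gave 0.03 and 0.08.

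At day 7 and at day 60 no gene passed (107 genes, 1.04%, and 267 genes, 2.59%, at an unadjusted p under 0.05; day 28 had 694, 6.74%, and 457 with 13 animals). The lowest p of day 7 was that of Srek1, a splicing regulator, which was higher on the IL side in 4 of 4 animals. The IL arrays read 6.10, 6.31, 6.01 and 6.35 and the CL arrays 5.35, 5.61, 5.53 and 5.61, without overlap (0.67 ± 0.12, limma adjusted p = 0.458). The CL arrays of day 7 did not read Srek1 well above background, and the IL side was at least 1.26-fold higher. A second Srek1 probe had the opposite sign over the 14 animals (mean -0.06, against 0.16 for the first). No gene passed the test of a change over the 3 days (limma moderated F; 0% of genes; 214 genes, 2.08%, at an unadjusted p under 0.05).

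The medians of the reactive astrocyte and activated microglia lists were higher at day 7 than at days 28 and 60, and uneven among the 4 animals of day 7. The median difference of the reactive astrocyte list at day 7 was 0.25, and that of the activated microglia list 0.28, against -0.01 for all genes; at day 28 these medians were -0.02 and 0.08 and at day 60 -0.003 and 0.01. Within day 7 the mean over the 13 reactive astrocyte genes was 0.48 in the animal of IL replicate 2 and 0.22 in that of IL replicate 1, but 0.04 and -0.08 in the other 2 animals. Gfap in the same order differed by 1.51, 0.37, -0.19 and -0.09, and Timp1 by 1.13, 0.76, -0.01 and -0.67. None of these genes passed at day 7, and Timp1 was detected on 7 of 14 IL and 5 of 14 CL arrays.

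The genes that KA changed were also uneven among the sham animals of day 7. Of 348 genes (3.38%) that were higher on the injected side of KA animals at day 7, 64.9% were above 0 in the sham animals of day 7 (median 0.05), where 45.2% of all genes were, and of the KA-lower genes (1.02%) 31.4% were above 0. Among single sham animals of day 7 the share of the 348 genes above 0 was 65.2%, 62.6%, 49.1% and 47.7% (IL replicates 1, 2, 4 and 3). At day 28, 40.1% of 387 KA-higher genes (3.76%) were above 0 in sham (all genes 46.7%), and at day 60, 49.5% of 297 (2.88%; all genes 50.8%). The KA-lower genes (0.679% and 1.61% of genes) were above 0 in 65.7% at day 28 and 62.7% at day 60, the opposite of their KA direction. Without the animals with low bright probes, KA genes called anew gave other shares. Of the KA-higher genes 63.2%, 34.5% and 48.7% were above 0 at days 7, 28 and 60 (all genes 45.2%, 45.5% and 50.8%). Of the KA-lower genes 26.6%, 59.4% and 60.4% were. The 348 KA-higher genes of day 7 were above 0 in 65.2% in the day 28 animal of IL replicate 5 and 65.8% in the day 60 animal of IL replicate 4, so shares as high also occurred outside day 7. None of these genes was called in sham at its day. Over all 10304 genes the correlation of sham with KA side differences was 0.27 at day 7, -0.10 at day 28 (-0.16 without the animals with low bright probes) and -0.02 at day 60 (0.0001 without them), as a description across genes that share arrays, slides and normalization.

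Many, but not all, injury genes differed more between the sides in KA than in sham animals. The direct test of KA minus sham called 362 genes higher (3.51%) and 116 lower (1.13%); without the 3 animals with low bright probes the total was 557 in place of 478. Median scaling of the deposited intensities gave 328 higher and 26 lower. Of the 13 reactive astrocyte genes 10 were called higher in KA minus sham, of 8 activated microglia genes 5, of 5 complement genes 5, of 8 interferon response genes 7, of 11 homeostatic microglia genes 6 and of the 13 scar matrix genes 4, and none of them lower. Gpnmb differed between the sides by 2.09 ± 0.16 in KA, which was 2.02 ± 0.27 more than in sham (limma adjusted p = 4.66e-06). Cd44 differed by 1.09 ± 0.07 in KA, above every sham animal in 26 of 26 KA animals (KA minus sham 1.30 ± 0.12, limma adjusted p = 3.31e-09). For Gfap the KA difference was 1.21 ± 0.13 and KA minus sham 0.90 ± 0.22 (limma adjusted p = 0.00911), and 8 of 26 KA animals exceeded the highest sham animal. The Gfap call was lost with slide as a fixed term (0.83, limma adjusted p = 0.0634).

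Of the 14 neuropeptide and trophic factor genes 5 were called higher in KA minus sham and 0 lower. Trh, thyrotropin-releasing hormone, differed by -0.16 ± 0.13 between the sides in sham and by 3.65 ± 0.25 in KA, and Cartpt, which encodes the CART peptides, by -0.14 ± 0.10 and 4.27 ± 0.28. Bdnf, a neurotrophin induced by activity, differed by 0.08 ± 0.07 in sham and 1.23 ± 0.11 in KA. Of the 41 genes (0.398%) that were over 2-fold higher on the injected side in KA, 37 had a sham interval inside a 1.5-fold change and 40 inside a 2-fold change. Of all 10304 genes 9738 (94.5%) and 10163 (98.6%) had such intervals, so the 41 were not bounded more often than genes at large. For Npy, Fos (KA minus sham 0.55 ± 0.28, limma adjusted p = 0.336) and Aqp4, the astrocyte water channel (0.61 ± 0.21, limma adjusted p = 0.0923), the difference between KA and sham did not pass. Without the animals with low bright probes that of Aqp4 passed (0.66 ± 0.20, limma adjusted p = 0.0428).

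The 8 genes with the lowest p on the lower side of KA minus sham were near 0 or above it in sham. The ranking itself used the sham differences, so that it favoured genes with sham values above 0. Hapln4, a link protein of perineuronal nets, differed by 0.04 ± 0.07 in sham and by -0.44 ± 0.05 in KA (KA minus sham -0.48 ± 0.09, limma adjusted p = 0.000525). Trhde, the enzyme that degrades thyrotropin-releasing hormone, differed by 0.03 ± 0.09 and -0.51 ± 0.06. For Atcay, a neuronal protein known from hereditary ataxia, the KA difference alone did not pass (-0.14 ± 0.05, limma adjusted p = 0.0528). The sham difference of Atcay was 0.25 ± 0.07, higher in 12 of 14 animals, so that the KA minus sham value of -0.39 ± 0.09 drew on both groups (limma adjusted p = 0.00322).

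**Figure D3:**
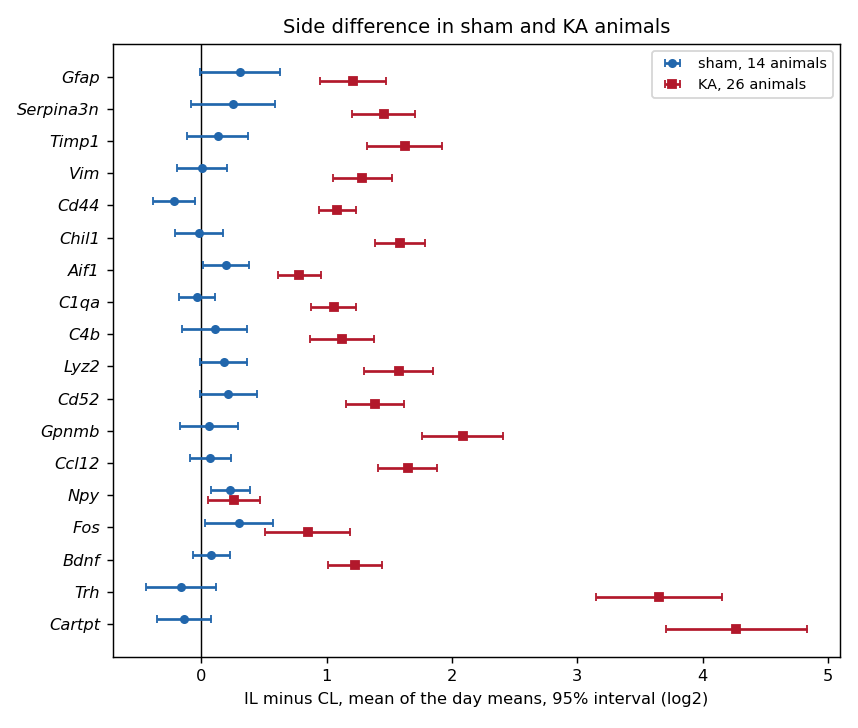
Side difference (IL minus CL, mean of the day means, log2, x axis) of 18 glial, activity and peptide genes with 95% intervals, in 14 sham animals (blue circles) and 26 KA animals (red squares). Sham values lie between -0.22 (Cd44) and 0.31 (Gfap), while KA values reach 4.27 (Cartpt), and the 2 intervals overlap for Npy and Fos.

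The widest side differences within single sham animals were those of the choroid plexus, the tissue of the ventricles that makes cerebrospinal fluid and borders the hippocampus, and they went both ways. Over the 13 animals the SD of the side difference had a median of 0.31 over all genes, and 10 of the 20 genes with the largest SD were among the 12 choroid plexus genes measured (the ranking was chosen after its values were seen). Ttr, transthyretin, had the largest (SD 2.48), with differences from -3.72 to 3.63, higher on the IL side in 7 of 13 animals. The IL array read Ttr at 13.69 and the CL array at 10.56 in the day 7 animal of IL replicate 4, and at 10.14 and 13.86 in the day 60 animal of IL replicate 1. Clic6, a chloride channel protein of that epithelium, followed with 2.11, and Folr1, its folate receptor, had 1.65. The mean over the 12 genes was 2.66 in the day 28 animal of IL replicate 4 and 1.49 in the day 7 animal of IL replicate 4. It was -2.29 in the day 7 animal of IL replicate 3 and -2.21 in the day 60 animal of IL replicate 1. None of the 12 passed in the pooled comparison (6 above 0, median -0.02; 1 above 0, median -0.22, with 13 animals), and 1 of 12 intervals lay inside a 1.5-fold change, so that this comparison bounds choroid plexus genes least.

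A single animal also stood out in the values of neuronal genes. In the day 60 animal of IL replicate 2 the mean over 5 dentate granule cell genes was lower by 1.57 on the IL side, whereas the other 13 animals lay between -0.29 and 0.50. C1ql2, a synaptic protein of mossy fibres, read 9.30 on its IL and 11.53 on its CL array, and the neocortex gene Myl4 read 10.42 and 7.82. The mean over 8 neocortex genes was 0.93 higher on its IL side, and over 10 immediate early genes 1.04 higher, while Gfap was lower by 0.67 on the log2 scale and Serpina3n by 1.53 there. The part of dissection or of the injection in these values was not tested.

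**Figure D4:**
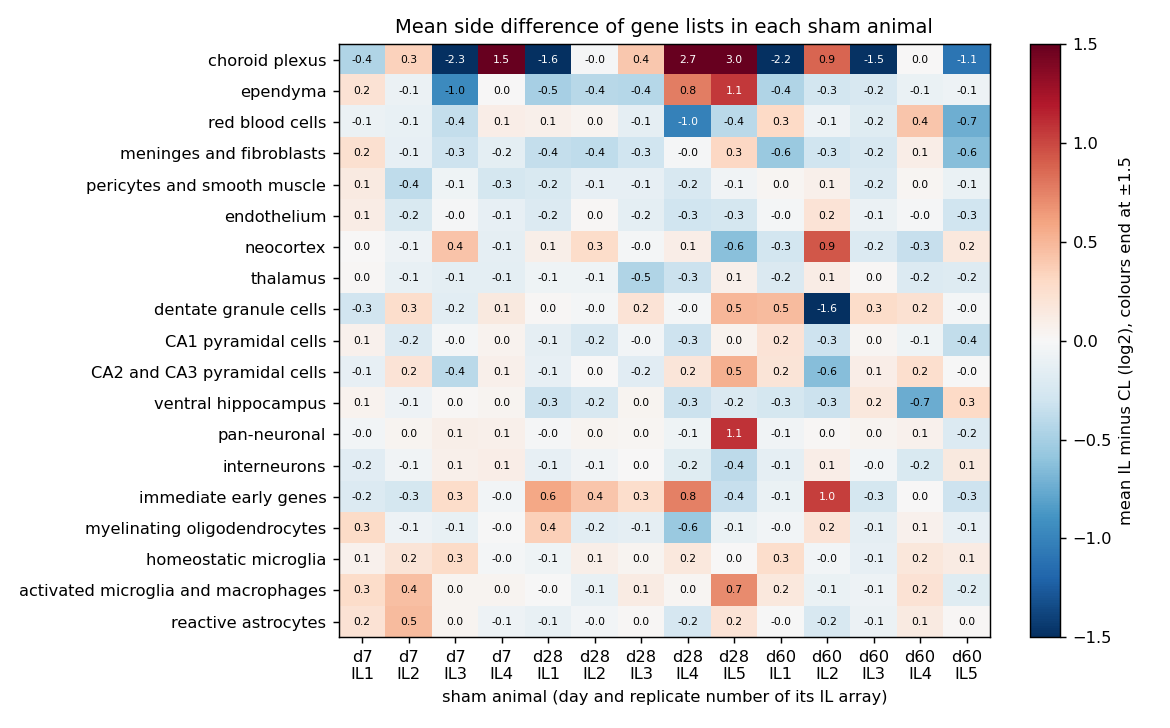
Mean IL minus CL difference (log2, colour and printed value) of 19 gene lists (rows) in each of the 14 sham animals (columns, by day and replicate number of the IL array); colours end at ±1.5. The choroid plexus row runs in both directions, from -2.3 to 3.0. The 3.0 is that of the day 28 animal with low bright probes (IL replicate 5), and the highest value without it is 2.66. The dentate row lies between -0.29 and 0.50 except for -1.6 in the day 60 animal of IL replicate 2. The reactive astrocyte row is highest, at 0.48, in the day 7 animal of IL replicate 2.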

How the data were processed

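RNA of one hippocampus per array was hybridised to Illumina mouse BeadChips. The values used are the log2 signals of the deposited series matrix; the submitters' processing notes name BeadStudio, GenomeStudio and Partek, but no source used here states how the values were normalized. The deposited intensity table, which holds 248020 negative values and so was background-subtracted before the authors deposited it, gave array measures and alternatives, and its detection p-values, as deposited, gave the filter. Of its 25697 lines the first 21244 were used; the other 4453 held values shifted between arrays and were left out, and 1 displaced detection column was moved to its array (rank correlation with signal 0.208 before, 0.988 after).

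Probes with 1 gene symbol in the platform annotation (19889 with one, 1355 with none) and a detection p under 0.05 on at least 4 of 28 sham arrays were kept (14932), and the probe with the highest mean stood for a gene, which left 10304 genes. "Detected" and "well above background" both mean a detection p under 0.05. IL minus CL was taken within each animal and fitted with limma 3.58.1 in R 4.3.3, with day as a factor. The pooled value is the mean of the 3 day means, given with its SE, and p was adjusted over all genes (Benjamini-Hochberg). KA minus sham was fitted over all 40 animals. A fold of at least N is the bright side's mean against the higher, per array, of the dim value and the lowest detected signal. The pairing comes from animal numbers in the labels: deviations of the 2 sides of an animal correlated with a median r of 0.07 (-0.38 to 0.30; other animals of the same day -0.03). Replicate numbers in the titles agree on both sides for only 2 of 14 animals. The fitting scripts were tested on simulated data.

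Named genes were the 10 lowest p per direction (pooled), the 3 lowest per day and direction, the 5 lowest for change, the 8 lowest per direction for KA minus sham, a fixed set of 44 genes (31 tested) and up to 3 per list, for 179 tested genes. The members and all 39 lists were chosen with earlier results of these data known. Alternatives covered scaling, background, filter, probe choice, pairing, slide, day, moderation, weights and single animals left out. Leaving out animals with low bright probes or with a slide 9 array was added after seeing the data. Depth has no counts here, so precision is limited by the number of arrays.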

Additional observations from a re-analysis of the deposited data

Results flagged for a closer look

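Of 69 groups of 4 or 5 animals tested for a single value far from the rest (Dixon's test), 7 had one, and chance gives about 1 in 20. 3 of the 7 belong to the day 60 animal of IL replicate 2: its Fos difference was 1.44 (the other 4 animals -0.25 to 0.04), its mean over immediate early genes 1.04 (others -0.31 to 0.01) and its mean over dentate granule cell genes -1.57 (others -0.03 to 0.48). At day 28 the animal of IL replicate 4 had an Amotl2 difference of 0.92 (others 0.27 to 0.36). At day 7 the animal of IL replicate 4 had a Trh difference of 0.66 (others -0.16 to -0.02; Trh was detected on 8 of 14 IL and 9 of 14 CL arrays). The SD of the side differences over all genes was 1.11 in the day 28 animal with low bright probes (others 0.235 to 0.478). It was 0.681 in the day 60 animal of IL replicate 5 (others 0.247 to 0.340), both of whose arrays lay on slide 9, the dimmest, and detected 49.3% and 46.8% of probes.

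The side difference itself differed between KA and sham animals for 362 genes that were higher and 116 that were lower in KA minus sham (limma, adjusted p under 0.05). Among the genes described above, KA minus sham was 0.90 for Gfap, 1.305 for Cd44 and 3.81 for Trh.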

How the results depend on the processing

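The pooled sham comparison called 0 genes under all 31 alternatives, with a lowest adjusted p of 0.0593 when slide was a fixed term and animal a random block, and day 60 and the change over days also called 0 in each. None of 179 named genes was called in the pooled comparison in any of them. Day 7 called 1 gene (Srek1, adjusted p = 0.0440) with animal weights. Day 28 called 1 gene (Kank2); this was 0 under the strict filter, without the replicate block, with a replicate block by title number, with animal as a random block, with trended and robust moderation, and in both exclusions added after seeing the data, and 2 (with Tirap, -0.66) with slide as a fixed term. Leaving out 1 animal gave 0 or 1 call, and the call was kept only without the day 28 animal of IL replicate 1 or the day 60 animal of IL replicate 5. KA minus sham called 478 genes, 292 with the replicate block by title number (222 higher, 70 lower), 781 with slide as a fixed term (455 higher, 326 lower) and 376 to 514 with 1 animal left out. With slide as a fixed term or the replicate block, KA minus sham for Gfap did not pass (adjusted p = 0.0634 and 0.114). Of 673 values of 22 gene results under alternatives, 652 kept their direction and side of the threshold, 20 lost the call, 1 gained it and 0 reversed. Median scaling moved the median of all genes from -0.01 to -0.15 at day 28. The causes were not tested. The fit of the 3 animals with both sides on 1 slide gave values and no call.

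Limits: injected side is right side, day is age, and slides held the sides unevenly. The 14 animals bound the measured difference of most but not all genes, least those of the choroid plexus. The injection track was not sampled apart from the rest of the hippocampus, and dim genes such as Lcn2 and Ccl2 were not measured well above background.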

Other observations

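Gh and Prl, the growth hormone and prolactin genes of the pituitary, were chosen after their values were seen. In the day 7 animal of IL replicate 4 Gh read 10.19 on the IL and 8.03 on the CL array, and Prl 9.08 and 6.75. In the day 60 animal of IL replicate 2 Gh read 9.35 and 8.27 and Prl 8.29 and 7.63. In the day 60 animal of IL replicate 1 Gh read 8.91 and 8.47 and Prl 7.72 and 7.37. Other animals went the other way. In the day 60 animal of IL replicate 5 Gh read 6.24 on the IL and 7.67 on the CL array, and Prl 5.47 and 7.15. In the day 7 animal of IL replicate 2 Gh read 5.84 and 7.12 and Prl 5.74 and 6.07. On the 10 arrays of day 28 Gh lay between 5.50 and 6.86.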
